A study of Homo sapiens with 4 samples.

Results

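The receptors described here are 10 receptor tyrosine kinases outside the ERBB family, namely AXL, TYRO3, MERTK, MET, DDR2, FGFR1, IGF1R, INSR, PDGFRA and PDGFRB. They were taken from the deposited gene table by symbol, and all 10 were found among its 58735 genes. The RNA came from Hey-A8, a human line of ovarian cancer origin grown in medium with serum, and was sequenced in 2 groups of 2 libraries. The shSPTLC2 group carried a short hairpin labelled as directed at SPTLC2, and the shCON group a negative control hairpin. Titles and genotypes describe a stable SPTLC2 knockdown, whereas the treatment protocol describes transient transfection of hairpins against ZDHHC15, so the groups follow the titles. The number of hairpins or clones behind each group is not given. Whether replicates were grown as separate cultures is not stated, so p-values reflect the spread among these 4 libraries alone, which may be technical.

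Receptor tyrosine kinases are cell-surface proteins that bind a ligand outside the cell and, as pairs, phosphorylate each other on tyrosines inside it. Adaptors dock on these tyrosines and pass the signal to the RAS and PI3K-AKT pathways. Several of them, AXL and MET among them, are known for roles in the motility and invasion of carcinoma cells. AXL, TYRO3 and MERTK form the TAM family with the ligands GAS6 and protein S. MET binds hepatocyte growth factor, DDR2 binds fibrillar collagen, and FGFR1, IGF1R, INSR and the PDGF receptors bind the growth factors or hormone in their names. The question put to the receptors is how their transcripts differ between the shSPTLC2 and shCON cells, in a series whose title ties SPTLC2 to the AKT pathway.

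Total counts ran from 14464784 to 15084966 per library. SPTLC2 itself had 587 and 662 counts in shSPTLC2 replicates 1 and 2, against 871 and 884 in shCON replicates 1 and 2, a log2 fold change of -0.52 ± 0.12 (SE; edgeR quasi-likelihood adjusted p = 0.0063). That call ended without shSPTLC2 replicate 1 (adjusted p = 0.134 in edgeR) and without shSPTLC2 replicate 2 (0.052), with adjusted p from 4.2e-04 to 0.15 over 17 alternatives. The keratins KRT7 and KRT8 and the mesenchymal gene VIM were abundant in every library, the ovarian lineage factor PAX8 was at 444 to 494 CPM (counts scaled to the TMM-adjusted library size) in shSPTLC2 and 273 to 294 CPM in shCON, and the immune list summed to at most 0.204 CPM. Other markers of the same lists were low or at 0: the epithelial gene CDH1 had 0 counts in every library, KRT19 lay at 1.22 to 1.24 CPM in shSPTLC2 and 1.30 to 1.55 CPM in shCON, and EPCAM had at most 10 counts. Of the further ovarian markers, MUC16 had at most 1 count, WT1 lay at 6.45 to 9.45 CPM in shSPTLC2 and 9.20 to 10.4 CPM in shCON, and MSLN lay at 15.8 to 16.2 CPM in shSPTLC2 and 9.95 to 11.0 CPM in shCON. Transcripts of the mitochondrial genome took 10.1% and 8.56% of counts in shSPTLC2 replicates 1 and 2, against 5.46% and 6.39% in shCON replicates 1 and 2. The part of these differences between the groups in the results below was not tested.

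In these cells the TYRO3 transcript was higher and the DDR2 transcript lower with the SPTLC2 hairpin, by less than 1.5-fold each, while AXL, MET, FGFR1, IGF1R, INSR and MERTK were not called. Of the 10 receptors, 8 passed the filter on low counts and were tested, of which 1 was called higher, 1 lower and 6 not called, at an adjusted p under 0.05. Among all 15313 genes tested, 19.4% were called, 10.4% higher and 9.00% lower, so 2 called of 8 receptors is near that background. The median log2 fold change of the tested receptors was 0.17, against 0.005 for all tested genes. In CPM, shSPTLC2 and shCON libraries were fully apart for 7 of the 8 tested receptors, against 61.5% of all tested genes.

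The level of each receptor was compared per gene length in FPKM (fragments scaled to gene length and library size), as deposited. AXL had by far the highest level, at 182 and 189 FPKM in shSPTLC2 replicates 1 and 2, against 197 and 144 FPKM in shCON replicates 1 and 2. It made up 79.7% and 78.5% of the summed FPKM of the 10 receptors in shSPTLC2 replicates 1 and 2, and 77.2% and 72.6% in shCON replicates 1 and 2. MET came next, with a mean level of 21.6 FPKM in shSPTLC2 and 25.3 FPKM in shCON, then DDR2 with 13.6 FPKM in shSPTLC2 and 19.3 FPKM in shCON. FGFR1, IGF1R and TYRO3 had mean levels of 6.82, 3.64 and 2.99 FPKM in shSPTLC2 and of 5.68, 3.18 and 2.17 FPKM in shCON. MERTK, INSR, PDGFRB and PDGFRA were all at or below 0.449 FPKM in every library. The order of the 10 levels was the same in both groups, and within each group the libraries of neighbours in that order did not overlap, although for the lowest receptors the levels rest on few reads.

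**Figure D1:**
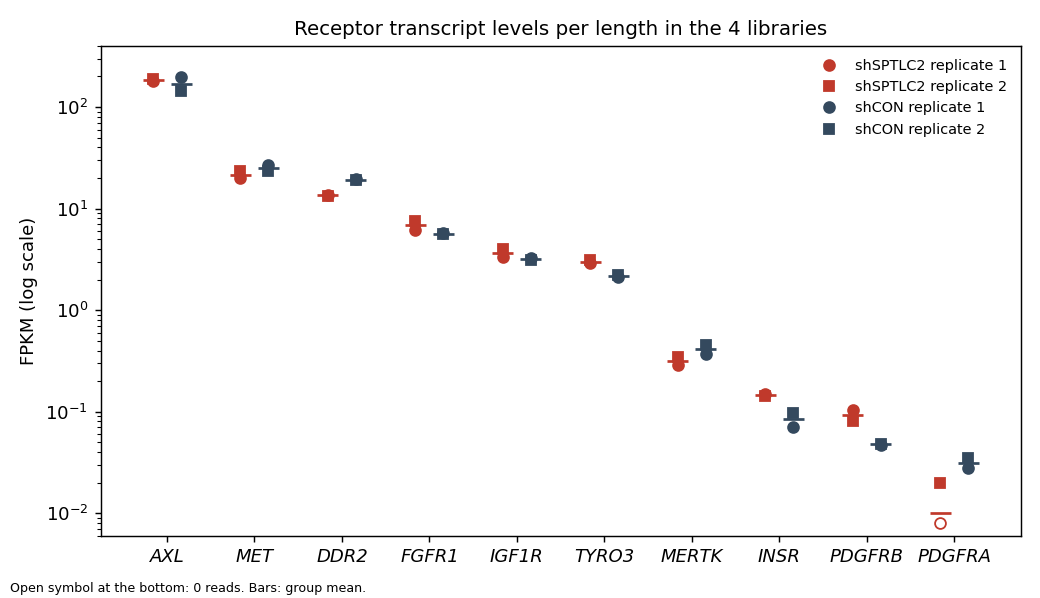
Level of each receptor in FPKM (y axis, log scale) by receptor (x axis) in the shSPTLC2 libraries (red, left) and the shCON libraries (dark, right), with a bar at each group mean and an open symbol for 0 reads. AXL lies at 144 to 197 FPKM in all 4 libraries, and PDGFRA and PDGFRB lie near or below 0.1 FPKM.

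Within the TAM family, TYRO3 rose, while AXL and MERTK were not called. TYRO3 (ENSG00000092445, hg38 chromosome 15, 41557675 to 41583586, plus strand) had 471 and 522 counts in shSPTLC2 replicates 1 and 2, against 343 and 356 in shCON replicates 1 and 2. These are 32.0 and 34.0 CPM in the shSPTLC2 libraries, against 23.1 and 24.4 CPM in the shCON libraries, with means of 33.0 ± 1.40 CPM in shSPTLC2 and 23.8 ± 0.923 CPM in shCON (SD, n = 2 each). Both shSPTLC2 libraries lay above both shCON libraries, and the libraries of a group differed by less than the groups. The log2 fold change of TYRO3 was 0.47 ± 0.13 (SE; edgeR quasi-likelihood adjusted p = 0.018; 95% interval 0.20 to 0.75), and 1269 genes called higher had a larger one. TYRO3 lost its call when shSPTLC2 replicate 1 was left out (edgeR adjusted p = 0.114) and when shSPTLC2 replicate 2 was (0.164), while the log2 fold change stayed between 0.43 and 0.52 with any 1 library left out, and the adjusted p ranged from 0.0090 to 0.23 over the alternatives. The pseudogene TYRO3P had at most 8 counts in any library, so few reads were assigned to that copy.

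AXL, the most abundant receptor, differed more between the shCON libraries than between the groups. AXL (ENSG00000167601, chromosome 19, 41219203 to 41261766, plus strand) had 13995 and 15077 counts in shSPTLC2 replicates 1 and 2, against 15037 and 10857 in shCON replicates 1 and 2. In CPM these are 952 and 982 in the shSPTLC2 libraries, against 1014 and 745 in the shCON libraries, so shCON replicate 1 was the highest of the 4 libraries and shCON replicate 2 the lowest. The ratio between replicates was 1.03 in shSPTLC2 and 1.36 in shCON. The log2 fold change of AXL was 0.14 ± 0.13 (SE; edgeR quasi-likelihood adjusted p = 0.51; 95% interval -0.15 to 0.42). Its direction depended on 1 library: it was 0.37 (adjusted p = 0.0041 in edgeR) without shCON replicate 1 and -0.075 (adjusted p = 0.67) without shCON replicate 2, with adjusted p from 0.0041 to 0.98 over the alternatives. With a correction for the GC content of transcripts, which is 59.2% for AXL, the log2 fold change was 0.01.

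MERTK (ENSG00000153208, chromosome 2, 111898479 to 112029561, plus strand) was weakly detected, with 20 and 25 counts in shSPTLC2 replicates 1 and 2, against 26 and 31 in shCON replicates 1 and 2. Its log2 fold change came to -0.37 ± 0.38 (SE; edgeR quasi-likelihood adjusted p = 0.52), and the 95% interval of -1.18 to 0.43 covers changes by more than 2-fold downward. GAS6, the ligand of all TAM receptors, had 154 and 162 CPM in the shSPTLC2 libraries, against 137 and 118 CPM in the shCON libraries. Its log2 fold change of 0.31 ± 0.11 (SE) missed the threshold (edgeR quasi-likelihood adjusted p = 0.058). PROS1, which encodes protein S, a ligand of TYRO3 and MERTK, had a log2 fold change of -0.17 ± 0.15 (SE; adjusted p = 0.47 in edgeR).

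DDR2, a collagen receptor, fell. DDR2 (ENSG00000162733, chromosome 1, 162631373 to 162787400, plus strand) had 2186 and 2226 counts in shSPTLC2 replicates 1 and 2, against 3087 and 3013 in shCON replicates 1 and 2. These are 149 and 145 CPM in the shSPTLC2 libraries, against 208 and 207 CPM in the shCON libraries, with SDs of 2.56 CPM in shSPTLC2 and 0.962 CPM in shCON (n = 2 each). The groups did not overlap, and the libraries of a group were closer to each other for DDR2 than for any other receptor with over 200 counts in each library, with a ratio between replicates of 1.02 in shSPTLC2 and 1.01 in shCON. The log2 fold change came to -0.50 ± 0.10 (SE; edgeR quasi-likelihood adjusted p = 0.0035; 95% interval -0.71 to -0.28), which is 0.708 times the shCON level, and 783 genes called lower had a more negative one. Without shSPTLC2 replicate 1 the value was -0.52 and the call ended (adjusted p = 0.079 in edgeR), and without shSPTLC2 replicate 2 it was -0.48 (0.075), with adjusted p from 6.1e-05 to 0.13 over the alternatives.

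Genes that bind or resemble DDR2 were followed alongside it. COL1A1, which encodes a chain of a fibrillar collagen, rose, with 92 and 76 counts in shSPTLC2 replicates 1 and 2, against 23 and 34 in shCON replicates 1 and 2, a log2 fold change of 1.52 ± 0.30 (SE; edgeR quasi-likelihood adjusted p = 0.0029). COL1A2, COL2A1, COL3A1 and COL10A1, further collagen chains that DDR receptors bind, had at most 7 counts in any library and were not tested. DDR1, the other collagen receptor of this family, had 20.5 and 22.5 CPM in the shSPTLC2 libraries, against 12.7 and 12.01 CPM in the shCON libraries, and rose by 0.80 ± 0.15 (SE) on the log2 scale (adjusted p = 0.0022 in edgeR). Per length DDR1 stayed below DDR2, at 2.22 and 2.45 FPKM in the shSPTLC2 libraries and 1.40 and 1.31 FPKM in the shCON libraries. The call of COL1A1 ended without shSPTLC2 replicate 1 (adjusted p = 0.069 in edgeR; 2.2e-05 to 0.26 over the alternatives), whereas DDR1 was called with any 1 library left out. The 3 coding genes nearest to DDR2 in pattern were MTMR10, ZNF787 and FAM155A, with root mean square distances of 0.013, 0.017 and 0.022 in centred log2 CPM over the 4 libraries, among the 10265 coding genes that averaged 5 CPM or more.

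The promoter sequences of TYRO3 and DDR2, which were called in opposite directions, and of AXL, the most abundant receptor, are shown so that their base composition can be compared. Each is 300 bases from RefSeq on GRCh38.p14, 250 before to 50 after the start nearest to the start of the gene in the table, written 5′ to 3′ on the plus strand. The position of that start minus the start in the table is 1537 bases for TYRO3, -510 for DDR2 and 20 for AXL. Capitals mark matches, on either strand, to the GC box GGGCGG, the TATA sequence TATAAA, the AP-1 sequence TGANTCA and the E-box CACGTG.
TYRO3, chr15:41558962-41559261: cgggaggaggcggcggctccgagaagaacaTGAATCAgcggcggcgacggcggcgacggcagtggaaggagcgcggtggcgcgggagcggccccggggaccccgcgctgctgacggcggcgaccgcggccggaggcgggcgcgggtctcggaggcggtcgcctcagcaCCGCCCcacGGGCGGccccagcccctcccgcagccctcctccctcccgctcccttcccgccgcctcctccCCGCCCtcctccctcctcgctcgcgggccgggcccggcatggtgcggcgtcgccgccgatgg
DDR2, chr1:162630613-162630912: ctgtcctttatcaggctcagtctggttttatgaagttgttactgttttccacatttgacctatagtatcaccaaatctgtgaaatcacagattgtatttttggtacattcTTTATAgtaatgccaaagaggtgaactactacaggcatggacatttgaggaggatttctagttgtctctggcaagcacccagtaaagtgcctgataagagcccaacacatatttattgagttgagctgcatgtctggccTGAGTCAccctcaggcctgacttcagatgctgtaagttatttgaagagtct
AXL, chr19:41218973-41219272: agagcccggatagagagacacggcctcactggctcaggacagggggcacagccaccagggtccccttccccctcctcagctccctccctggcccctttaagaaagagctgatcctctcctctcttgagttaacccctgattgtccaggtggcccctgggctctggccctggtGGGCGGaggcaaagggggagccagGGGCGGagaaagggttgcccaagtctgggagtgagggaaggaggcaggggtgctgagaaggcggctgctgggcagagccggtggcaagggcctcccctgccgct
The TYRO3 window is 80.3% G and C with 49 CpG dinucleotides and 3 GC boxes, whereas the DDR2 window is 41.0% G and C with 0 CpG and 0 GC boxes. The AXL window lies between them, with 66.0% G and C, 7 CpG and 2 GC boxes. The windows of IGF1R, INSR, MERTK and MET, not called and not shown, are 79.7%, 78.3%, 78.3% and 69.3% G and C. Their log2 fold changes were 0.20, 0.79, -0.37 and -0.22. Those of PDGFRA and PDGFRB, not tested, are 47.0% and 59.3%, and FGFR1 had no window. Whether promoter composition goes with the direction of change was not tested. Over the 35116 promoter windows in the table the medians were 58.7% G and C and 14 CpG. GC boxes occurred in 45.0% of all windows, the TATA sequence in 11.5%, the AP-1 sequence in 7.71% and the E-box in 7.26%. The AP-1 pattern, in which N is any base, had 1 match in TYRO3 (TGAATCA) and 1 in DDR2 (TGAGTCA), which differ at that base. DDR2 had 1 TATA match, which reads TTTATA and so lies on the strand opposite to the gene. No E-box letters were in the 3 windows shown. These are matches of letters alone, and binding was not tested. DDR2 has 3 RefSeq windows in the table and TYRO3 and AXL have 2 each, so the start in use in these cells may be another.

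MET, the receptor of hepatocyte growth factor, was not called. MET (ENSG00000105976, chromosome 7, 116672390 to 116798386, plus strand) had 142 and 165 CPM in shSPTLC2 replicates 1 and 2, against 190 and 167 CPM in shCON replicates 1 and 2. The groups did not overlap, but shSPTLC2 replicate 2 and shCON replicate 2 were almost equal. The log2 fold change came to -0.22 ± 0.11 (SE; edgeR quasi-likelihood adjusted p = 0.19; 95% interval -0.46 to 0.02). Without shCON replicate 2 it was -0.32 and MET was called lower (adjusted p = 0.024 in edgeR; 0.024 to 0.71 over the alternatives). HGF, its ligand, had 1 count in shCON replicate 1 and 0 in the other libraries, where 0 counts allow up to 0.206 CPM. SPINT2, which encodes an inhibitor of the proteases that activate hepatocyte growth factor, fell to 2.45 and 3.91 CPM in the shSPTLC2 libraries, against 7.49 and 8.24 CPM in the shCON libraries, a log2 fold change of -1.30 ± 0.26 (SE; adjusted p = 0.0031 in edgeR). The call of SPINT2 ended without shSPTLC2 replicate 1 (adjusted p = 0.078 in edgeR; 1.2e-05 to 0.19 over the alternatives).

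FGFR1 was not called, while its kinase-lacking relative FGFRL1 rose. FGFR1 (ENSG00000077782, chromosome 8, 38400215 to 38468834, minus strand) had 85.6 and 105 CPM in shSPTLC2 replicates 1 and 2, against 79.2 and 78.5 CPM in shCON replicates 1 and 2. Both shSPTLC2 libraries lay above both shCON libraries, with a spread in shSPTLC2 larger than the gap between its lower library and shCON. The log2 fold change came to 0.28 ± 0.12 (SE; edgeR quasi-likelihood adjusted p = 0.12; 95% interval 0.02 to 0.53). LETM2 and the antisense gene AC087623.1 overlap FGFR1 on the other strand. LETM2 had 186 and 154 counts in the shSPTLC2 libraries, against 209 and 267 in the shCON libraries, a log2 fold change of -0.52 (adjusted p = 0.057 in edgeR). AC087623.1 had 26 and 32 counts in the shSPTLC2 libraries, against 11 and 12 in the shCON libraries, and was called higher (log2 fold change 1.29, adjusted p = 0.044 in edgeR). As the strand setting of the counting is not stated, how reads in stretches shared with LETM2 or AC087623.1 were assigned is not known. The size of those stretches was not examined.

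FGFRL1, which binds fibroblast growth factors without a kinase domain, had 38.7 and 44.9 CPM in the shSPTLC2 libraries, against 23.3 and 19.4 CPM in the shCON libraries, a log2 fold change of 0.97 ± 0.14 (SE; edgeR quasi-likelihood adjusted p = 3.3e-04). It was called with any 1 library left out. FGFR4 rose by 1.09 ± 0.27 (SE; adjusted p = 0.010 in edgeR) on the log2 scale, with 5.24 and 5.67 CPM in the shSPTLC2 libraries, against 2.43 and 2.68 CPM in the shCON libraries. GPC1, a heparan sulfate proteoglycan that helps fibroblast growth factors bind, rose by 0.67 ± 0.15 (SE; adjusted p = 0.0063 in edgeR), whereas SDC4, another such proteoglycan, fell by 0.34 on the log2 scale (SE 0.11; adjusted p = 0.041). With all 4 libraries, SDC4 lost its call with library totals, without edgeR's robust option and on FPKM values. The GC correction, with or without the replicate block, ended it too. FGF2, a broad ligand of these receptors, was at 91.7 and 90.4 CPM in the shSPTLC2 libraries, against 90.4 and 70.4 CPM in the shCON libraries, and was not called. The calls of FGFR4 (edgeR adjusted p = 0.074 and 0.090, with alternatives spanning 0.0032 to 0.19), GPC1 (0.101 and 0.068; 4.0e-09 to 0.24) and SDC4 (0.41 and 0.115; 4.7e-04 to 0.41) ended without shSPTLC2 replicate 1 and without shSPTLC2 replicate 2, and that of SDC4 also without shCON replicate 2 (0.062).

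The insulin and insulin-like growth factor receptors were not called, while some proteins that bind insulin-like growth factors fell. IGF1R (ENSG00000140443, chromosome 15, 98648539 to 98964530, plus strand) had 46.8 and 55.8 CPM in shSPTLC2 replicates 1 and 2, against 45.3 and 43.8 CPM in shCON replicates 1 and 2. Its log2 fold change came to 0.20 ± 0.13 (SE; edgeR quasi-likelihood adjusted p = 0.27; 95% interval -0.06 to 0.47). INSR (ENSG00000171105, chromosome 19, 7112255 to 7294034, minus strand) had 23 counts in each shSPTLC2 library, against 11 and 15 in shCON replicates 1 and 2. Although the groups did not overlap, the log2 fold change of INSR was 0.79 ± 0.44 (SE; adjusted p = 0.23 in edgeR), and its 95% interval of -0.15 to 1.72 was the widest of the tested receptors. With 3.64 FPKM in shSPTLC2 and 3.18 FPKM in shCON, IGF1R had a mean level far above that of INSR, at 0.145 FPKM in shSPTLC2 and 0.0844 FPKM in shCON.

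IGFBP1, a secreted protein that binds insulin-like growth factors, fell to 4.35 and 4.10 CPM in the shSPTLC2 libraries, against 11.7 and 9.13 CPM in the shCON libraries, a log2 fold change of -1.30 ± 0.22 (SE; edgeR quasi-likelihood adjusted p = 0.0011). IGFBP3, the main binding protein in blood, fell to 338 and 266 CPM in the shSPTLC2 libraries, against 427 and 416 CPM in the shCON libraries (-0.48 ± 0.12, SE; adjusted p = 0.012 in edgeR). IGF2R, a receptor that clears IGF2 and has no kinase domain, fell to 287 and 367 CPM in the shSPTLC2 libraries, against 433 and 507 CPM in the shCON libraries (-0.52 ± 0.13, SE; adjusted p = 0.010). IGFBP4, another secreted binding protein, had a log2 fold change of -0.25 ± 0.12 (SE; adjusted p = 0.15 in edgeR). IGFBP2, IGFBP5, IGFBP6 and IGFBP7 had log2 fold changes of -0.31, -0.22, 0.04 and 0.02, and none of them was called. The ligand genes IGF2 and INS had 0 counts in every library, and IGF1 had 1 count in shSPTLC2 replicate 2 and 1 in shCON replicate 2. IGFBP3 lost its call with shSPTLC2 replicate 2 left out (edgeR adjusted p = 0.25; 3.5e-05 to 0.25 over the alternatives) and IGF2R with shSPTLC2 replicate 1 left out (0.26; 2.9e-08 to 0.26).

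The PDGF receptors, which mark fibroblasts and pericytes in tissue, were near the limit of detection and were not tested. PDGFRA (ENSG00000134853, chromosome 4, 54229097 to 54298247, plus strand) had 0 and 3 counts in shSPTLC2 replicates 1 and 2, against 4 and 5 in shCON replicates 1 and 2. Over each group that is 0.0998 CPM in shSPTLC2 (exact 95% Poisson interval 0.0206 to 0.292) and 0.306 CPM in shCON (0.140 to 0.581), which overlap. The 0 in shSPTLC2 replicate 1 allows up to 0.204 CPM. PDGFRB (ENSG00000113721, chromosome 5, 150113837 to 150155872, minus strand) had 11 and 9 counts in shSPTLC2 replicates 1 and 2, against 5 in each shCON library. Over each group that is 0.666 CPM in shSPTLC2 (0.407 to 1.03) and 0.340 CPM in shCON (0.163 to 0.626), whose intervals overlap as well. These intervals cover counting error only, and their overlap does not decide whether either receptor differed. In CPM both shSPTLC2 libraries lay below both shCON libraries for PDGFRA and above them for PDGFRB. The groups were also apart for 61.5% of all tested genes. Their ligands were expressed: PDGFC, the most abundant, had 90.7 and 91.0 CPM in the shSPTLC2 libraries, against 109 and 90.1 CPM in the shCON libraries, and PDGFA had 30.9 and 33.4 CPM in the shSPTLC2 libraries, against 32.8 and 24.4 CPM in the shCON libraries. None of the 4 PDGF genes tested was called. Of the 7 fibroblast and pericyte markers, PDPN was called higher and FAP and CSPG4 lower, and the list summed to 150 to 163 CPM in shSPTLC2 and 133 to 143 CPM in shCON, with DCN and LUM at 0 counts in all libraries.

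**Figure D2:**
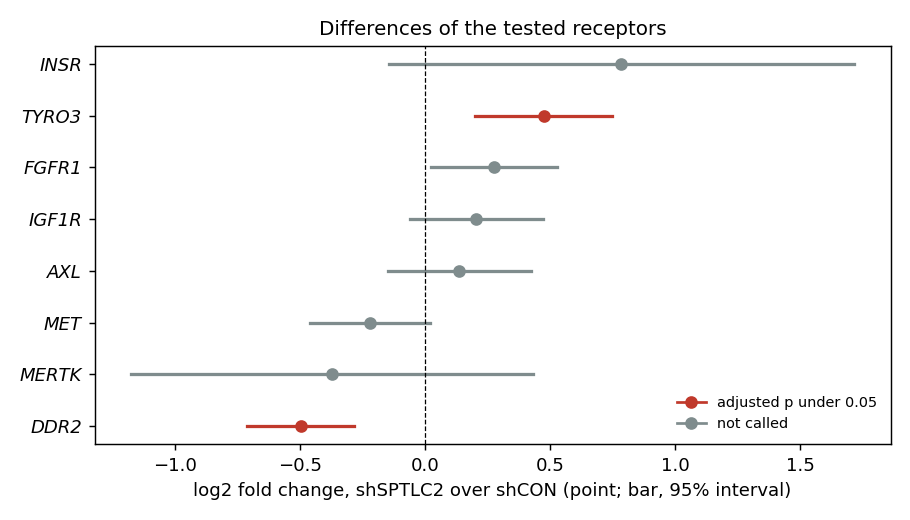
Log2 fold change of each tested receptor, shSPTLC2 over shCON (x axis), with its 95% interval, in red where the adjusted p was under 0.05. TYRO3 lies at 0.47 and DDR2 at -0.50 with intervals clear of 0, and the intervals of INSR and MERTK, with few reads, are the widest.

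Genes around the receptors were read from 5 lists with 135 members, whose counts of calls stand beside the 19.4% of all tested genes called, 10.4% higher and 9.00% lower. Of 33 ligand genes, 11 were tested, of which 1 rose (COL1A1), 0 fell and 10 were not called, so 1 of 11 was called against 19.4% of all genes, with a median log2 fold change of 0.17. Of 17 binding proteins and co-receptors, 16 were tested, of which 2 rose (FGFRL1, GPC1), 4 fell (IGFBP1, IGF2R, IGFBP3, SDC4) and 10 were not called, so 6 of 16 were called against 19.4% of all genes, with a median of -0.23. The difference of these shares from that background was not tested. CD44, which MET uses as a co-receptor, was the most abundant of that list and had a log2 fold change of -0.06 ± 0.11 (SE; edgeR quasi-likelihood adjusted p = 0.75). Most paracrine growth factors of the ligand list were near 0, so 23 of its 34 table rows, IGF2 having 2, were not tested.

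Adaptors dock on activated receptors. Of 24 adaptor genes, 22 were tested, of which 1 rose (SH2B1, 0.40 ± 0.13), 1 fell (PTPN11, -0.35 ± 0.10) and 20 were not called, with a median log2 fold change of 0.07. Among all tested genes 19.4% were called, against 2 of 22 adaptors. PTPN11, which encodes the phosphatase SHP2 that many receptors need to activate RAS, had 229 and 252 CPM in the shSPTLC2 libraries, against 310 and 304 CPM in the shCON libraries (edgeR quasi-likelihood adjusted p = 0.029). SH2B1, an adaptor of the insulin and insulin-like growth factor receptors, had 37.1 and 34.1 CPM in the shSPTLC2 libraries, against 25.6 and 28.3 CPM in the shCON libraries (adjusted p = 0.041 in edgeR). With all 4 libraries, SH2B1 lost its call in DESeq2's Wald test, with the GC correction (with or without the replicate block) and on FPKM values. PTPN11 lost its call with library totals, with the GC correction plus replicate block and on FPKM values. SHC1, a docking protein of most receptors, had a log2 fold change of 0.29 ± 0.10 (SE; adjusted p = 0.059 in edgeR) and SH2B3 one of 0.13 ± 0.10 (adjusted p = 0.42). Both calls ended without shSPTLC2 replicate 1 (adjusted p in edgeR 0.33 for PTPN11 and 0.30 for SH2B1) and without shSPTLC2 replicate 2 (0.127 and 0.132), and that of SH2B1 also without shCON replicate 1 (0.107). Over the alternatives the adjusted p ran from 0.0047 to 0.33 for PTPN11 and from 0.015 to 0.40 for SH2B1.

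Of 20 genes that process, shed or turn over receptors, 15 were tested, of which 2 rose, 3 fell and 10 were not called, with a median log2 fold change of -0.11. These 5 of 15 stand beside 19.4% called among all tested genes, 10.4% higher and 9.00% lower. CBLB, a ubiquitin ligase that marks activated receptors for degradation, rose by 0.69 ± 0.19, with 13.5 and 15.7 CPM in the shSPTLC2 libraries, against 10.5 and 7.62 CPM in the shCON libraries (edgeR quasi-likelihood adjusted p = 0.018). LRIG1, a transmembrane protein known to lower the level of several receptors, had 19.6 and 21.4 CPM in the shSPTLC2 libraries, against 28.998 and 31.5 CPM in the shCON libraries (-0.56 ± 0.13, SE; adjusted p = 0.0091). Its relative LRIG3 was called in the other direction (0.77 ± 0.19, SE; adjusted p = 0.011). PTPN2, a phosphatase that acts on the insulin receptor among others, fell by 0.44 on the log2 scale (SE 0.13; adjusted p = 0.029). With all 4 libraries, PTPN2 lost its call with library totals, in DESeq2's Wald test and on FPKM values. The sheddase genes ADAM10 (-0.11 ± 0.11) and ADAM17 (-0.15 ± 0.13), the convertase gene FURIN (0.20 ± 0.11) and the abundant phosphatase genes PTPRF (0.08 ± 0.11) and PTPN1 (0.20 ± 0.10) were not called.

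Most calls of the turnover list rested on both shSPTLC2 libraries. Without shSPTLC2 replicate 1 and without shSPTLC2 replicate 2, edgeR's adjusted p was 0.090 and 0.18 for CBLB, 0.144 and 0.055 for LRIG1, 0.086 and 0.111 for LRIG3 and 0.20 and 0.17 for PTPN2. Without shCON replicate 2 it was 0.071 for CBLB and 0.0997 for PTPN2. Over the alternatives it ran from 1.7e-04 to 0.35 for CBLB, 4.7e-04 to 0.17 for LRIG1, 2.5e-04 to 0.22 for LRIG3 and 0.0020 to 0.24 for PTPN2.

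Of 41 other receptor tyrosine kinases outside the ERBB family, 17 were tested, of which 4 rose (DDR1, EPHB4, KIT and FGFR4), 1 fell (EPHA4) and 12 were not called. These 5 of 17 stand beside 19.4% called among all tested genes, 10.4% higher and 9.00% lower. Transcripts of DDR1, EPHB4 and FGFR4 lay at 58.7% to 75.2% GC content, where 23.3% of coding genes were called higher and 4.86% lower. KIT, the receptor of stem cell factor, had 7.07 and 6.65 CPM in the shSPTLC2 libraries, against 3.17 and 3.57 CPM in the shCON libraries (1.02 ± 0.24, SE; edgeR quasi-likelihood adjusted p = 0.0081). The ephrin receptor gene EPHB4 rose by 0.61 ± 0.14 (SE; adjusted p = 0.0055) and EPHA4 fell by 1.04 on the log2 scale (SE 0.22; adjusted p = 0.0049). TIE1, known from endothelium, and EPHA2 had the highest CPM of these kinases, and per length EPHA2 was the higher of the pair in every library. EPHA2 had levels of 102 and 105 FPKM in the shSPTLC2 libraries, against 131 and 116 FPKM in the shCON libraries, and TIE1 had 80.1 and 85.6 FPKM in the shSPTLC2 libraries, against 79.0 and 77.6 FPKM in the shCON libraries. For TIE1 and EPHA2 the log2 fold changes were 0.09 ± 0.11 and -0.25 ± 0.11 (SE; adjusted p = 0.58 and 0.13 in edgeR). The 3 endothelial markers did not move together: CDH5 was called higher (1.09 on the log2 scale) and PECAM1 lower (-1.71), and VWF was not called (-0.61), with a median of -0.61. Their sum of 110 to 132 CPM in shSPTLC2 and 58.6 to 60.2 CPM in shCON was nearly all CDH5, as PECAM1 and VWF stayed at or below 2.09 CPM, and their part in these values was not tested. Calls ended without shSPTLC2 replicate 1 for KIT (adjusted p = 0.094 in edgeR; 0.0014 to 0.19 over the alternatives) and EPHA4 (0.090; 6.7e-05 to 0.21), and without shSPTLC2 replicate 2 for KIT (0.051) and EPHB4 (0.101; 2.8e-05 to 0.19). The median log2 fold change of the list was 0.09, and whether its share of calls differs from that of the 10 receptors was not tested.

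**Figure D3:**
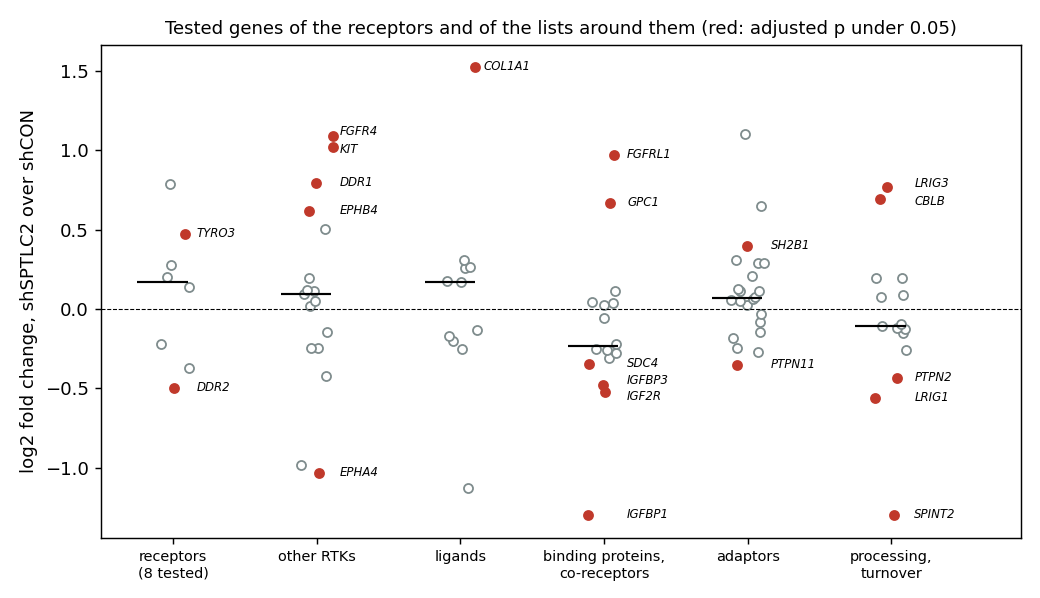
Log2 fold change, shSPTLC2 over shCON (y axis), of each tested gene of the 10 receptors and of the 5 lists around them (x axis), with a bar at each median and called genes in red with their names. The medians lie between -0.23 and 0.17, and called genes lie on both sides of 0 in every group except the ligands, where COL1A1 alone was called.

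The called receptors differ in the GC content of their transcripts, at 57.4% for TYRO3 and 48.7% for DDR2. Among coding genes with a content like that of TYRO3 (52.6% to 58.7%), 10.9% were called higher and 11.0% lower. Among those with a content like that of DDR2 (47.2% to 52.6%), 7.26% were called higher and 13.5% lower. Among those like AXL (58.7% to 75.2%), 23.3% were higher and 4.86% lower. DDR1, EPHB4, FGFR4, FGFRL1, GPC1, COL1A1 and SH2B1, all called higher, also lay in that last range. KIT, CBLB and LRIG3, called higher too, lay at 44.1%, 43.3% and 44.0%. With the GC correction SH2B1 lost its call and the rest of these genes kept theirs. The part of GC content in these calls was not tested. With a GC-content correction TYRO3 had a log2 fold change of 0.40 (adjusted p = 0.036 in edgeR; 0.0090 to 0.23 over the alternatives) and DDR2 one of -0.47 (0.0042; 6.1e-05 to 0.13), so both stayed called.

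**Figure D4:**
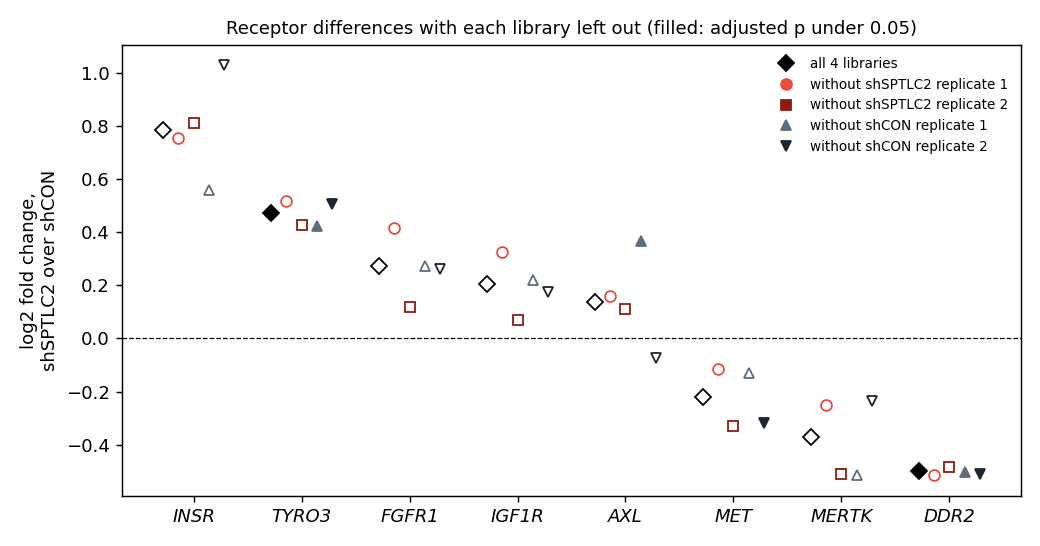
Log2 fold change of each tested receptor, shSPTLC2 over shCON (y axis), with all 4 libraries and with each library left out, filled where the adjusted p was under 0.05. The points of DDR2 and TYRO3 stay close together (-0.52 to -0.48 and 0.43 to 0.52) but are open without either shSPTLC2 library, and those of AXL fall on both sides of 0.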

How the data were processed

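The authors deposited raw read counts, as whole numbers, for 58735 genes in 4 libraries, and FPKM values. The deposited FPKM values were proportional to count over gene length within each library (100% of values within a relative tolerance of 1e-06). Per the submitters' processing notes, HISAT2, StringTie, SAMtools and the build hg38 were used. Neither the program that counted reads nor its strand setting is named in the labels.

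Counts were tested in R 4.3.3 with edgeR 4.0.16 (filterByExpr, minimum count 10 and total 15; TMM; robust quasi-likelihood F test, no covariates), with Benjamini-Hochberg adjustment over 15313 genes and calls at 0.05. Each SE was taken as |log2 fold change| divided by the root of the F statistic. CPM use TMM-adjusted totals. GC content came from GENCODE 29 transcripts. The 17 alternatives used DESeq2 1.42.0, limma 3.58.1, other scalings and filters, FPKM values, a GC correction, a replicate block and left-out libraries. In simulated counts edgeR recovered 41.8% of planted 1.5-fold changes, 65.7% of 2-fold and 86.4% of 4-fold ones, with 7 false calls among 136. A gene that was not called may thus still differ by 1.5-fold or 2-fold. Between libraries of a group, a chi-square test differed at 0.05 for 28.4% (shSPTLC2) and 36.7% (shCON) of genes, more than counting noise gives, so no pair was merged; this does not show that they are separate cultures.

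The members and lists were chosen with earlier results of these data known. Named by rule were the receptors, SPTLC2, in each list the 4 called genes of smallest adjusted p (or fewer) and the 2 most abundant by CPM, ligands of called receptors, and the 3 coding genes nearest to DDR2. Other genes named (IGFBP2, IGFBP3, IGFBP5, IGFBP6, IGFBP7, SDC4, PTPN2, FGFR4, SHC1, ADAM10, ADAM17, FURIN, further ligands, cell type markers and genes overlapping a receptor) were chosen after their values were seen.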

Additional observations from a re-analysis of the deposited data

How the results depend on the processing

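Precision is limited by 2 libraries a group. Over all genes, fewer were called than with all 4 libraries when either shSPTLC2 library was left out. More were called when either shCON library was left out. Calls that ended without a shSPTLC2 library thus went with a loss of calls over all genes. Without 1 library, the lone library left in its group is assumed to vary like the other group; edgeR then called 640 to 4027 genes, 0 to 2 receptors higher and 0 to 2 lower, and in the lists 0 to 4 ligands, 3 to 8 binding proteins, 0 to 4 adaptors, 0 to 6 processing genes and 2 to 6 other receptor kinases. The log2 fold changes ran from -0.075 to 0.37 for AXL, 0.43 to 0.52 for TYRO3, -0.51 to -0.23 for MERTK, -0.33 to -0.12 for MET, 0.12 to 0.42 for FGFR1, 0.07 to 0.33 for IGF1R, 0.56 to 1.03 for INSR, -0.52 to -0.48 for DDR2 and -0.58 to -0.47 for SPTLC2.

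With limma on log2(FPKM + 0.1), log2(FPKM + 1) and log2(FPKM + 0.1) without a filter, 1719, 1716 and 0 genes were called (4933 at an unadjusted p under 0.05 in the last, against 5081 in edgeR), TYRO3 was not called (0.45, 0.33 and 0.45) and 0 receptors were higher. Without the filter, DDR2 (-0.51) and SPTLC2 (-0.52) were not called either, 0 receptors were lower, and 0 ligands and 0 other receptor kinases were called. Those 3 settings called 3, 2 and 0 binding proteins, 0, 0 and 0 adaptors and 2, 2 and 0 processing genes. Library totals and a minimum count of 50 each called 2 ligands. DESeq2's Wald test and the GC correction each called 1 adaptor, and the GC correction with the replicate block called 0. The cause was not tested. Scaling by library totals made 65.1% of calls higher, against 53.6% with TMM, and moved the median of all genes by 0.055. With the GC correction 1351 calls were higher and 1661 lower (44.9% higher), so lower calls were the majority there.

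The deviations of same-numbered libraries had a correlation of -0.013. Whether equal numbers mark a shared day is not stated in the labels and was not tested. With the replicate block 3307 genes were called, TYRO3 at 0.47 (adjusted p = 0.011 in edgeR) and DDR2 at -0.50 (0.0011). MERTK and INSR gave no value at a minimum count of 50, and DESeq2 gave no adjusted p for INSR.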
